A study of Caenorhabditis elegans with 2 samples.

Results

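The retinoblastoma-related gene lin-35 and 7 genes for its partners in the DREAM complex (efl-1, dpl-1, lin-9, lin-37, lin-52, lin-53 and lin-54) were examined for binding of the protein C08G9.2 at their starts in Caenorhabditis elegans embryos. They are 8 of 19973 protein-coding genes. The group was chosen by the high signal of lin-35 in these peak lists, and the other 7 were then taken by name as genes of the same complex. For each gene, all regions were taken whose summit lay within 1000 bp of the gene start, which is the 5′ end of its Ensembl record. Values at these starts are therefore a description, and no test was made of them.

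DREAM is a transcriptional repressor assembled from a pocket protein of the retinoblastoma family, an E2F and DP pair that binds DNA, and the MuvB core. It holds cell cycle genes off in cells that have stopped dividing. In C. elegans it also keeps germ line genes off in the soma, and most of its genes belong to class B of the synthetic multivulva (synMuv) genes, which act redundantly with class A genes in vulval development.

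The data came from chromatin immunoprecipitation and sequencing of whole hermaphrodites at the late embryo stage, 5 hours after egg bleaching. Strain OP513 carries the allele unc-119(tm4063) and the transgene wgIs513, which expresses C08G9.2 fused at its C terminus to GFP and FLAG. The labels differ on the antibody: the description names one to GFP, and the antibody field names C08G9.2 itself. There were 2 biological replicates in 1 group. No untagged or untreated worms were compared, and peak lists cannot show whether the labelled stage holds in terms of marker expression. The authors' lists held 30000 regions for the pooled replicates, 27783 for replicate 1, 29382 for replicate 2 and 1416 in the thresholded list, which was made by irreproducible discovery rate (IDR), a comparison of how replicates rank regions. The thresholded regions were the 1416 pooled regions of highest signal. The pooled and replicate lists contain background by design, so a low-ranked region in them is not by itself evidence of binding. Signal is the authors' value per region on an unstated scale, and rank 1 is the highest signal in a list. No list gives read counts, so the depth behind each signal is unknown.

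Thresholded regions lay within 1000 bp of 2 of the 8 starts, those of lin-35 and lin-54. Over all protein-coding genes 1119 of 19973 met the same rule, which is 5.6%. The group was chosen by the signal of lin-35, so the place of lin-35 in this count was fixed in advance. Among the genes taken by name, only lin-54 met the rule. At neither lin-35 nor lin-54 was the DREAM gene the protein-coding start nearest to the summit. The regions at lin-9 and efl-1 ranked just below the thresholded list, those at lin-53 and lin-52 lay further down, at ranks 2377 and 5043 of 30000, and that at dpl-1 was at rank 22463. No list held a region within 1000 bp of lin-37. Some pooled region lay within 1000 bp of 7 of the 8 starts, that of lin-35 again included, against 46.7% of all protein-coding genes.

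**Figure D1:**
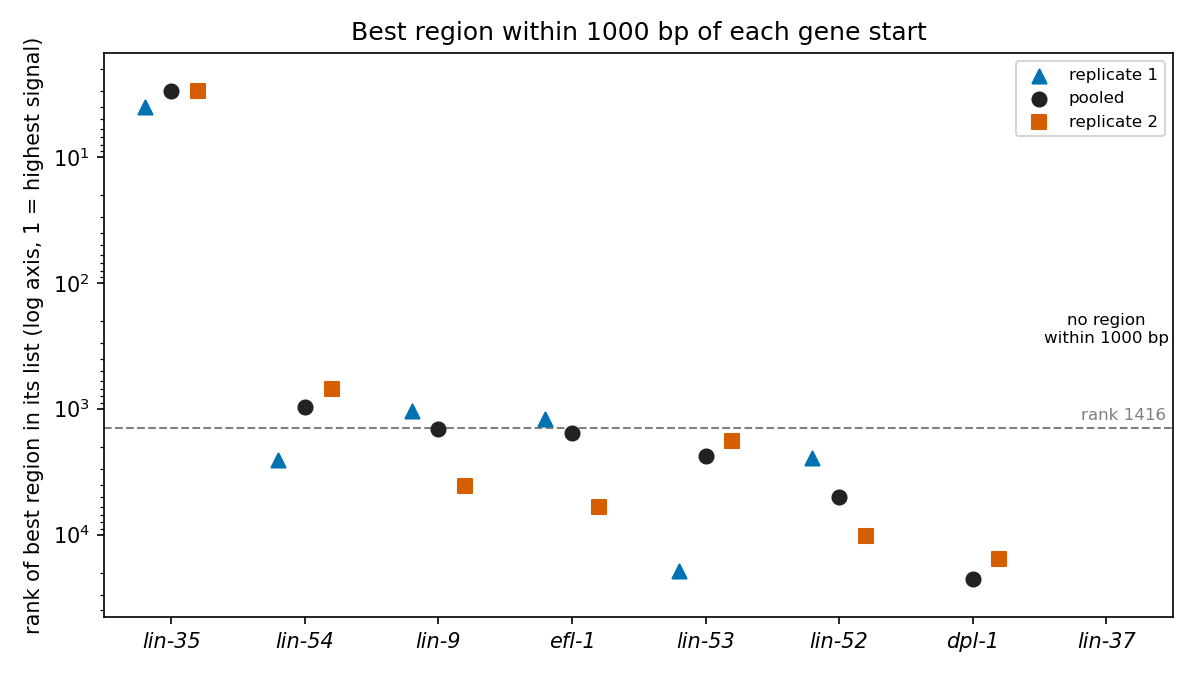
Rank of the best region within 1000 bp of each gene start (log axis, rank 1 at the top) in the replicate 1, pooled and replicate 2 lists, with the genes in order of pooled rank and a dashed line at rank 1416, the size of the thresholded list. The 3 symbols of lin-35 lie at ranks 3 and 4, those of every other gene spread over a wider range, and lin-37 has none.

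The pocket protein gene lin-35 (WBGene00003020, ce11 chromosome I, 5807709 to 5815637, plus strand) encodes the only retinoblastoma-family protein of the worm. Its region ran from 5807227 to 5807671 and had a pooled signal of 976, the third highest in the pooled list. The signal was 481 in replicate 1, rank 4, and 502 in replicate 2, rank 3. The replicates ranked it almost alike. Their summits were 39 bp apart, 222 bp before the start in replicate 1 and 261 bp before it in replicate 2. The median gap over thresholded regions was 21 bp. Nothing else near this start came close: the other pooled region within 1000 bp, 743 bp into the gene, had a signal of 30.7 and rank 22598. That weak region lay in an intron of lin-35 which also holds the 3′ UTR of C32F10.4, a gene nested in lin-35 on the other strand.

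The lin-35 region is shared with vps-51, a gene for a subunit of a complex in vesicle return to the Golgi, which is read in the opposite direction. A gap of 417 bases separates the 2 genes. The region covered it almost whole: it reached 65 bases into vps-51 and ended 37 bases before lin-35. The pooled summit was 157 bp before the vps-51 start, nearer than to lin-35, and the replicate 1 summit was 196 bp from it. The lists therefore do not assign this signal to either gene. In a window of 50 bases on either side of the pooled summit, G and C made up 30.7% of the bases. Only 22 of the 1416 thresholded summits had a lower share, 1.55% of them, and their quartiles were 45.5% and 55.4%. Of the 25 regions of highest signal, 2 had a lower share. At the replicate 1 summit it was 35.6%. Every stretch of 36 bases in the region occurs only here in the nuclear and mitochondrial genome, which holds for 77.7% of thresholded regions.

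By the rule of closest ranks over the pooled, replicate 1 and replicate 2 lists, the 5 genes most like lin-35 stood at 3 regions. The nearest was eel-1, a ubiquitin ligase gene, with ranks of 4, 3 and 4 in that order and a distance of 0.216 in log10 rank. K10D2.5, emb-1, which encodes a subunit of the anaphase-promoting complex, and prp-19, a splicing gene, followed with a single shared region at ranks 5, 6 and 5. M01F1.9 was the last, at rank 2 in each list. The summits lay 555 bp before eel-1, 22 bp before K10D2.5, 653 bp before prp-19, 741 bp before emb-1 and 980 bp before M01F1.9. These likenesses rest on 3 ranks per region, and none of the 5 genes belongs to DREAM.

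**Figure D2:**
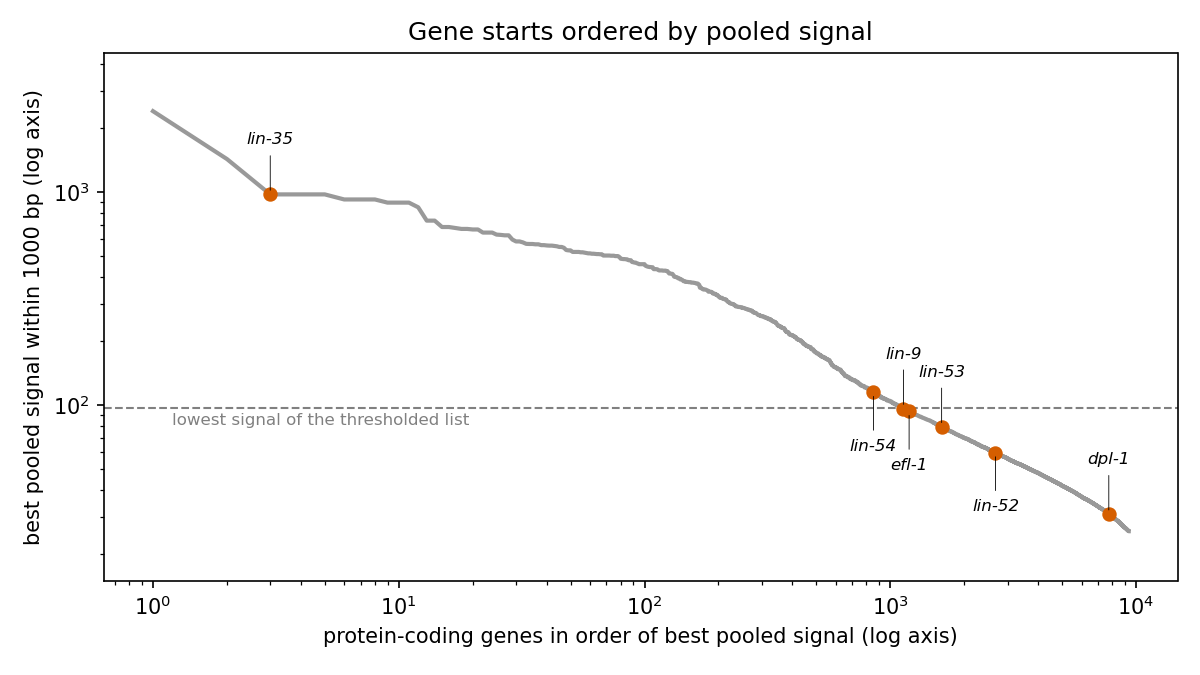
Best pooled signal within 1000 bp of the start (log axis) for the 9337 protein-coding genes with a pooled region, in falling order (log axis), with the DREAM genes as orange points and a dashed line at the lowest thresholded signal of 97.0. The point of lin-35 lies at the upper left with a signal of 976, and the others lie between 114.8 and 30.8.

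The E2F and DP pair that carries the pocket protein to DNA differed in signal. The E2F gene efl-1 (WBGene00001161, chromosome V, 16958590 to 16965675, minus strand) had its best region at 16965598 to 16966027, with a pooled signal of 93.6 and rank 1555. Its signal was 51.0 in replicate 1, rank 1205, and 32.7 in replicate 2, rank 5993, with both summits 137 bp before the start. Position agreed to the base while the ranks differed 4.97 times. The summit was nearest to efl-1 and to no other start within 1000 bp. Weaker pooled regions lay 352 bp before the start (signal 36.1) and 492 bp into the gene, in an intron (30.0). The former was also 787 bp before fbxa-90, an F-box gene.

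The DP gene dpl-1 (WBGene00001061, chromosome II, 9169910 to 9172565, plus strand) lies wholly inside T23G7.2, which is read from the other strand. Its only pooled region had a signal of 30.8 and rank 22463 and lay 273 bp before the start, in an exon of T23G7.2. Replicate 2 had a region there of signal 22.3 and rank 15525, and replicate 1 had none within 1000 bp. The nearest thresholded region was 109321 bp away. Of the pair, efl-1 lay near the edge of the thresholded list and dpl-1 far down the pooled one.

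The MuvB core gene lin-9 (WBGene00002998, chromosome III, 8900237 to 8904131, minus strand) had the region next in signal to the thresholded list among these genes. It ran from 8904060 to 8904489, with a pooled signal of 96.4 and rank 1438, against a lowest thresholded signal of 97.0. The signal was 54.0 in replicate 1, rank 1036, and 37.4 in replicate 2, rank 4075. The summits were 5 bp apart, at 149 and 144 bp before the start, and no other gene start of any kind lay within 1000 bp of them. Ranks differed 3.93 times, with the higher place in replicate 1, as for efl-1.

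The sequences before lin-9 and efl-1 are shown because these are the only DREAM genes whose leading region lay nearest to their own start and close to the threshold. Each runs from 250 bases before the gene start through 50 bases of the gene, on the strand of the gene, from the RefSeq WBcel235 genome. Capitals mark E2F-like words (TTTCCCGC, TTTGGCGC, TTTCGCGC, TTTGCCGC or GGCGGGAA) and words like the cell cycle homology region (CHR), which LIN-54 is known to bind (TTTGAA or TTCGAA), on either strand. Overlapping matches were counted separately, and a capital run is a match of letters, not a shown binding site.
lin-9, chrIII:8904082-8904381, minus strand: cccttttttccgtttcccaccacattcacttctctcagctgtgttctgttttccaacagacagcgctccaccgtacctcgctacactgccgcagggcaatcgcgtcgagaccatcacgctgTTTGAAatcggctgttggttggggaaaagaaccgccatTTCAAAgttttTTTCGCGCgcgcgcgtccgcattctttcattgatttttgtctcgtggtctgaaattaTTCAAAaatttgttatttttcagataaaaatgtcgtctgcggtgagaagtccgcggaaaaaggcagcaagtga
efl-1, chrV:16965626-16965925, minus strand: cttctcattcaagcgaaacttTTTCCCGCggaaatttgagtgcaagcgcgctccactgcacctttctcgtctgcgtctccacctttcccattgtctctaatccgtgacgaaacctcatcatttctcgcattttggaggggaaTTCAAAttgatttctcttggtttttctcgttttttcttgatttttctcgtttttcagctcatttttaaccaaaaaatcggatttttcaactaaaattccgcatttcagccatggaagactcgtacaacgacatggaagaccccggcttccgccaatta

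In the lin-9 sequence an E2F-like word TTTCGCGC began 80 bases before the start, and 3 CHR-like words began 129, 91 and 23 bases before it. The pooled summit, 144 bp before the start, lay upstream of all of them. The efl-1 sequence held TTTCCCGC 229 bases before the start and a CHR-like word 108 bases before it, on either side of the summit at 138 bp. The same 300-base stretch of lin-53 held TTTCCCGC too, and those of lin-35, dpl-1, lin-37, lin-52 and lin-54 held no E2F-like word. That makes 3 of 8 DREAM genes, against 5.22% of all protein-coding starts. These 3 stretches also had the highest GC shares of the 8, at 47.3% for lin-9, 42.7% for efl-1 and 38.0% for lin-53. Over all protein-coding starts the median share was 34.3% and the upper quartile 38.0%. The words are themselves rich in G and C, and starts of like GC share were not compared. CHR-like words are short and common, and stood in 6 of the 8 stretches against 68.9% of all starts.

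The remaining core genes were weaker or shared. LIN-54 is the DNA-binding subunit of the MuvB core, and lin-54 (WBGene00003037, chromosome IV, 13241044 to 13243401, plus strand) had the second thresholded region among these genes. It ran from 13240415 to 13240844, with a pooled signal of 114.8 and rank 974, below the median thresholded signal of 135. The signal was 38.8 in replicate 1, rank 2540, and 77.3 in replicate 2, rank 700, so the region stood higher in replicate 2. Its summit was 414 bp before lin-54 but 21 bp inside rpl-12, a ribosomal protein gene read in the opposite direction, in the 5′ UTR of that gene. In replicate 1 the summit was 5 bp before the rpl-12 start. The pooled summit with 50 bases on either side is given because the start of rpl-12 lies inside this stretch, which is on the strand of lin-54 in the RefSeq WBcel235 genome. It held no E2F-like or CHR-like word, so it has no capitals, and 54.5% of it was G or C.
lin-54, chrIV:13240580-13240680, plus strand: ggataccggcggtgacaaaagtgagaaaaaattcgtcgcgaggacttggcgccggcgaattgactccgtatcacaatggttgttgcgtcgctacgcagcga

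LIN-53, a histone-binding protein of the RbAp48 family that also belongs to other chromatin complexes, is encoded by lin-53 (WBGene00003036, chromosome I, 9618196 to 9619760, minus strand). Its region at 9619780 to 9620209 had a pooled signal of 79.2 and rank 2377. Among the genes with a region in both replicates, the ranks disagreed most here. The signal was 17.9 in replicate 1, rank 19452, and 50.3 in replicate 2, rank 1811. The summits were still only 4 bp apart. The pooled summit lay 235 bp before lin-53 and 232 bp before nra-2, a gene for a nicalin-like protein that is read in the opposite direction.

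LIN-52, a small core protein that links the pocket protein to MuvB in mammals, is encoded by lin-52 (WBGene00003035, chromosome III, 9824083 to 9824750, minus strand). Its best region (9825052 to 9825481) had a pooled signal of 59.9 and rank 5043, with 39.2 in replicate 1, rank 2446, and 26.8 in replicate 2, rank 10180. The summit was 517 bp before lin-52 but only 165 bp inside ZK632.9, in a coding exon of that gene. ZK632.9 lies on the same strand and ends 126 bases before lin-52. Replicate summits were 132 bp apart, the widest gap among these genes.

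The remaining core gene, lin-37 (WBGene00003022, chromosome III, 7070890 to 7072552, minus strand), had no region within 1000 bp in any list. It begins 60 bases after ZK418.5, a gene on the same strand. The nearest pooled region was 1705 bp before the lin-37 start, beyond that gene, with a signal of 47.6 and rank 8990. It was 406 bp before the ZK418.5 start, and had rank 9000 in replicate 1 and 10049 in replicate 2 within 1000 bp of that start. At the other side of the 1000 bp limit, the region farthest inside it was one of replicate 1, 896 bp into lin-35, with a signal of 15.6. The nearest outside it was a region of replicate 1 in the direction of nra-2, 1166 bp before lin-53, and its pooled counterpart 1168 bp before that start had a signal of 37.1. Many worm genes that follow another this closely on one strand are transcribed with it from an upstream promoter. Whether that is so for lin-37 or lin-52 is not given in the annotation used here.

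**Figure D3:**
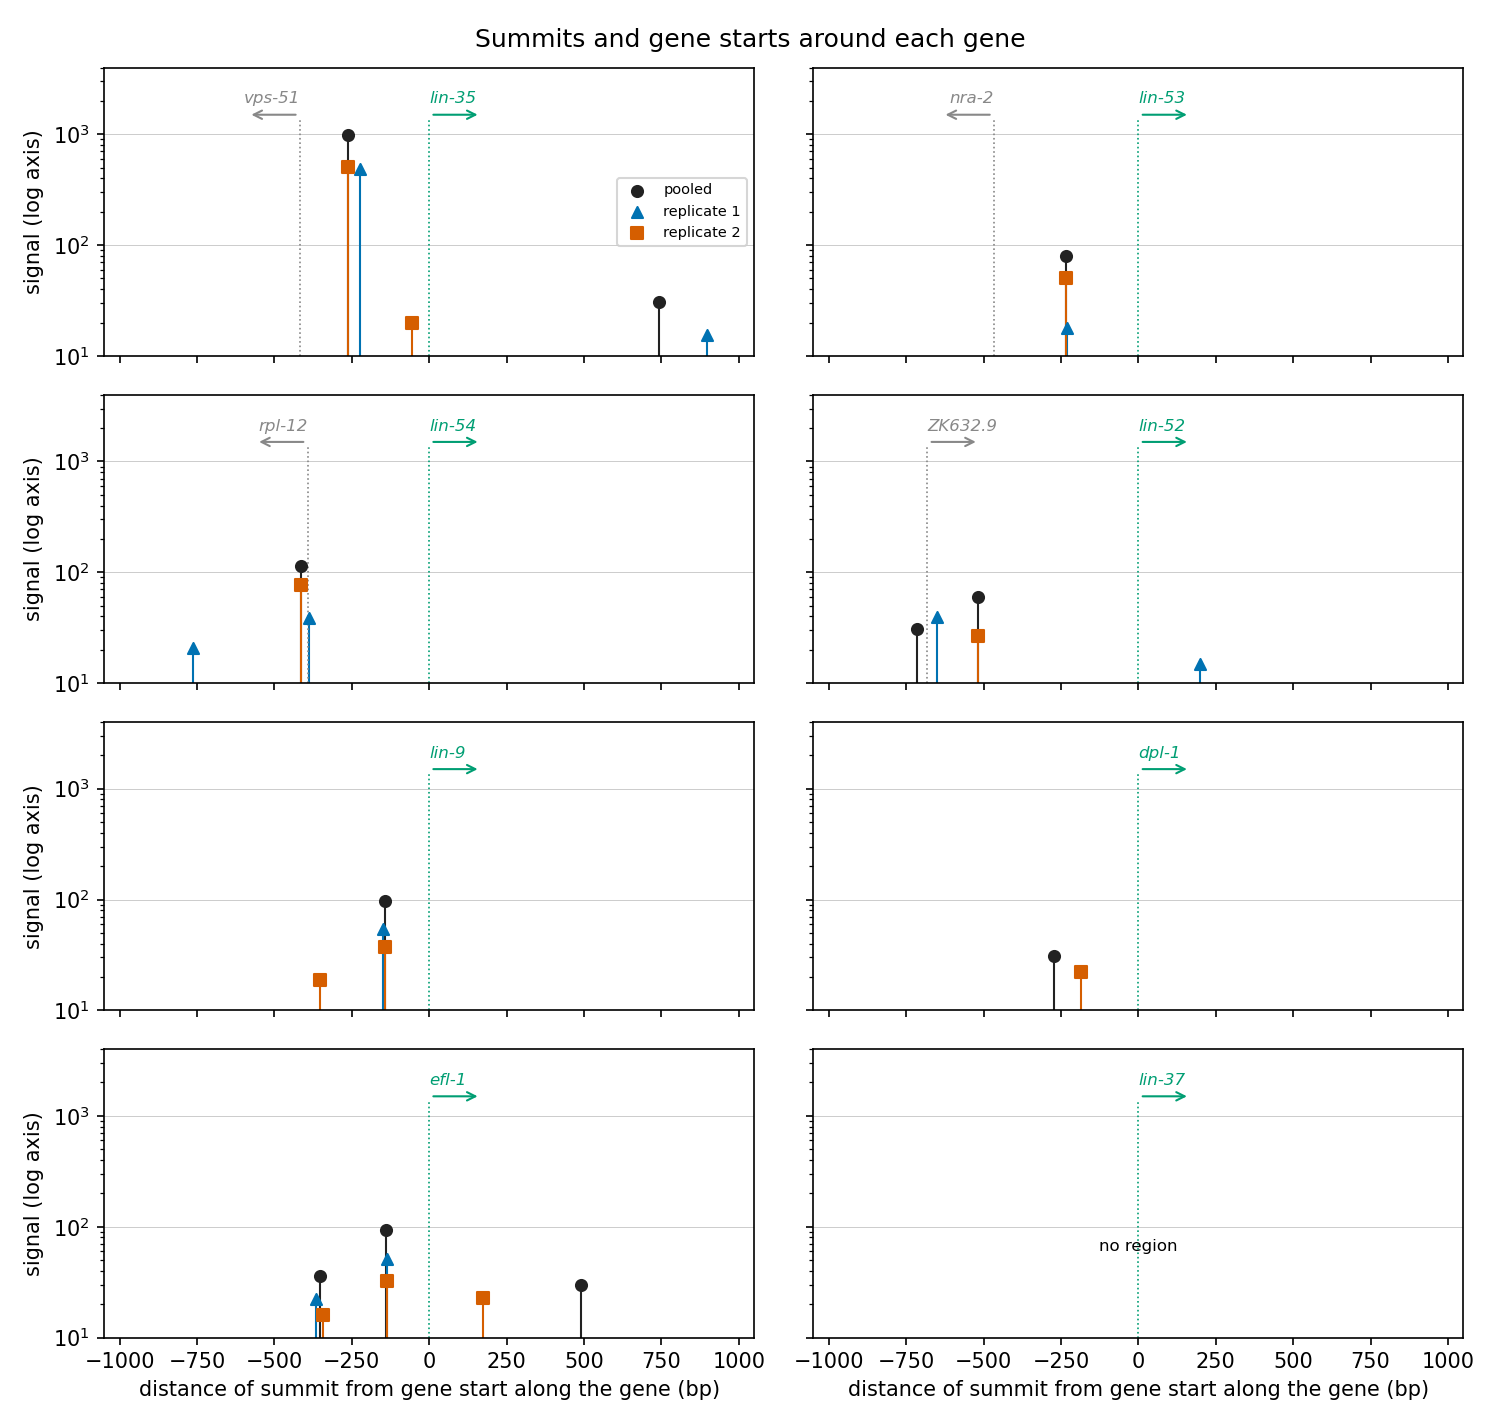
Signal (log axis) of every region with its summit within 1000 bp of each gene start, against the distance of the summit from the start along the gene, for the pooled (black), replicate 1 (blue) and replicate 2 (orange) lists. Arrows are protein-coding gene starts and their direction, green for the DREAM gene and grey for neighbours. The leading summits of lin-35, lin-53 and lin-54 lie between or at a pair of starts that point apart, and that of lin-52 lies past the start of ZK632.9.

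The leading summit lay before the start in all 7 genes with a region, from 138 to 517 bp in the pooled list. Many worm transcripts are trans-spliced, so an annotated 5′ end need not be where transcription begins. An oppositely directed protein-coding start stood within 1000 bp upstream of 3 of the 8 genes (lin-35, lin-53 and lin-54), against 17.7% of all protein-coding genes. Genes with such a neighbour had a thresholded summit within 1000 bp in 13.0% of cases, and other protein-coding genes in 4.01%. Of 842 thresholded regions within 1000 bp of a protein-coding start, 302 had more than 1 such start, as those of lin-35 and lin-54 did.

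The replicates ranked lin-35 almost alike and the other regions less so. For lin-35 the larger rank was 1.33 times the smaller. The ratio was 3.63 for lin-54, 3.93 for lin-9, 4.16 for lin-52, 4.97 for efl-1 and 10.7 for lin-53. Over the 1415 thresholded regions matched in both replicates the median ratio was 1.43 and the ninth decile 2.91. Most of the DREAM regions lie outside that list, so the 2 sets are only given side by side, with no test. Of the 2 regions inside it, that of lin-35 lay just below the median ratio and that of lin-54 above the ninth decile. The direction was not shared: efl-1, lin-9 and lin-52 stood higher in replicate 1, and lin-53 and lin-54 in replicate 2. The dpl-1 start had a region in replicate 2 only, so it has no ratio. Among genes with a region in both replicates, summit gaps ran from 0 bp for efl-1 to 39 bp for lin-35 in the 5 other than lin-52. The median gap in the thresholded list was 21 bp.

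When the 1416 highest regions of a single replicate were used, replicate 1 gave a region at 3 of the 8 starts (lin-35, lin-9 and efl-1), where 5.45% of all protein-coding genes had one. Replicate 2 gave 2 of the 8 (lin-35 and lin-54), with 5.55% of all genes. Only lin-35 was in both, and the group was chosen by its signal in these lists.

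Windows of 50 bases on either side of the leading pooled summits were next compared by base content. The GC share was 59.4% for lin-9, 55.4% for lin-52 and lin-53, 54.5% for lin-54, 47.5% for dpl-1 and 43.6% for efl-1, so lin-35 at 30.7% was the lowest of the 7. Over the whole regions the order changed, with dpl-1 at 32.6% below lin-35 at 34.4%. A CHR-like word stood in 5 of the 7 windows, those of efl-1, dpl-1, lin-9, lin-52 and lin-53. It stood in 20.6% of windows at thresholded summits and 20.5% at all pooled summits. The 2 regions of the thresholded list, at lin-35 and lin-54, had none. No window held an E2F-like word, which 4.31% of thresholded windows did. With 100 bases on either side, efl-1, lin-9 and lin-53 held one, against 7.91% of thresholded and 5.75% of pooled windows. These are the same copies of the words as in the stretches before the starts, so they are not a second result. CHR-like words at that width stood in 6 of the 7 windows, now also that of lin-54, and in 38.8% of thresholded and 38.4% of pooled windows. All 7 regions consisted of 36-base stretches found at no other place in the genome.

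Away from the starts the gene bodies held little signal. Beyond 1000 bp from the start, lin-35 held 3 pooled regions, the best of signal 43.4 and rank 11185 in an intron 2466 bp from the start. One each lay in efl-1 (rank 23817) and dpl-1 (rank 10231, in a coding exon), 2 in lin-54 (best rank 17246, in the 3′ UTR), and none in lin-9, lin-37, lin-52 or lin-53. None of these regions was in the thresholded list. For lin-52, which is 668 bp long, the count was fixed in advance. Little length past 1000 bp was left in lin-53 (1565 bp) and lin-37 (1663 bp), against lin-35 at 7929 bp. The thresholded region nearest to a start was 218828 bp away for efl-1, 29723 bp for lin-9, 15554 bp for lin-37, 6283 bp for lin-53 and 5741 bp for lin-52.

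Genes of the pocket protein pathway, the synMuv classes and their opponents, chromatin complexes and the kinds that DREAM represses were read the same way. They made up 8 lists of 79 genes. A thresholded summit lay within 1000 bp of 8 of them (10.1%), beside 5.6% of all protein-coding genes. None of the 12 regulators of the pocket protein pathway had one. The highest of them in the pooled list, named here after their values were seen, were cdc-14, a phosphatase gene (signal 96.8, rank 1421), lin-23, an F-box gene (1889), cye-1, which encodes cyclin E (1938), efl-3, an E2F family gene (1997), and cki-1, a cyclin-dependent kinase inhibitor gene (2116). The cyclin D gene cyd-1 was at rank 14716, and its kinase gene cdk-4 had no pooled region. The cdc-14 region stood at rank 425 in replicate 2 and 3527 in replicate 1.

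The counts below stand beside 5.6% of all protein-coding genes with a thresholded summit within 1000 bp. The lists are small, and differences between them were not tested. Of the class C synMuv genes, which encode parts of a Tip60-like acetyltransferase complex, 2 of 4 had a thresholded region. They were mys-1, the acetyltransferase itself (signal 375, rank 121), and epc-1 (signal 107, rank 1123). Of the other class B genes 1 of 8 did, lin-61, for a protein that reads histone methylation (signal 272), with a summit nearer to bub-1. None of the 4 class A genes did, and the best of them was lin-38 at rank 1733. In the NuRD and MEC complexes, which deacetylate and remodel chromatin, 2 of 8 did, lin-40 (signal 107) and mep-1 (signal 105). The lin-40 summit was 896 bp before the start. Among 8 chromatin genes that oppose synMuv functions, mrg-1 (signal 126) had one, with spcs-2 the nearer start.

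Genes of the kinds that DREAM is known to repress were read from 2 lists. None of 15 P granule and meiotic chromosome genes had a thresholded region (beside 5.6% of all protein-coding genes). The highest was syp-3 at rank 1972, and pgl-1 was at rank 28853. Some pooled region stood at 11 of the 15 (beside 46.7% of all protein-coding genes), with a median rank of 14281. Of 20 replication and cell cycle genes 2 had a thresholded region (beside 5.6% of all protein-coding genes), and 17 had a pooled one (beside 46.7%), with a median rank of 12303. The 2 were pole-1, the gene for a DNA polymerase epsilon subunit (signal 420, rank 94), and pcn-1, for the sliding clamp PCNA (rank 1313). The median pooled rank was 9088 over the 67 listed genes with a pooled region, 1555 over the 7 DREAM genes and 11006 over all 9337 such genes. Since the lists are small and were chosen with the lin-35 peak known, these medians describe the lists only.

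**Figure D4:**
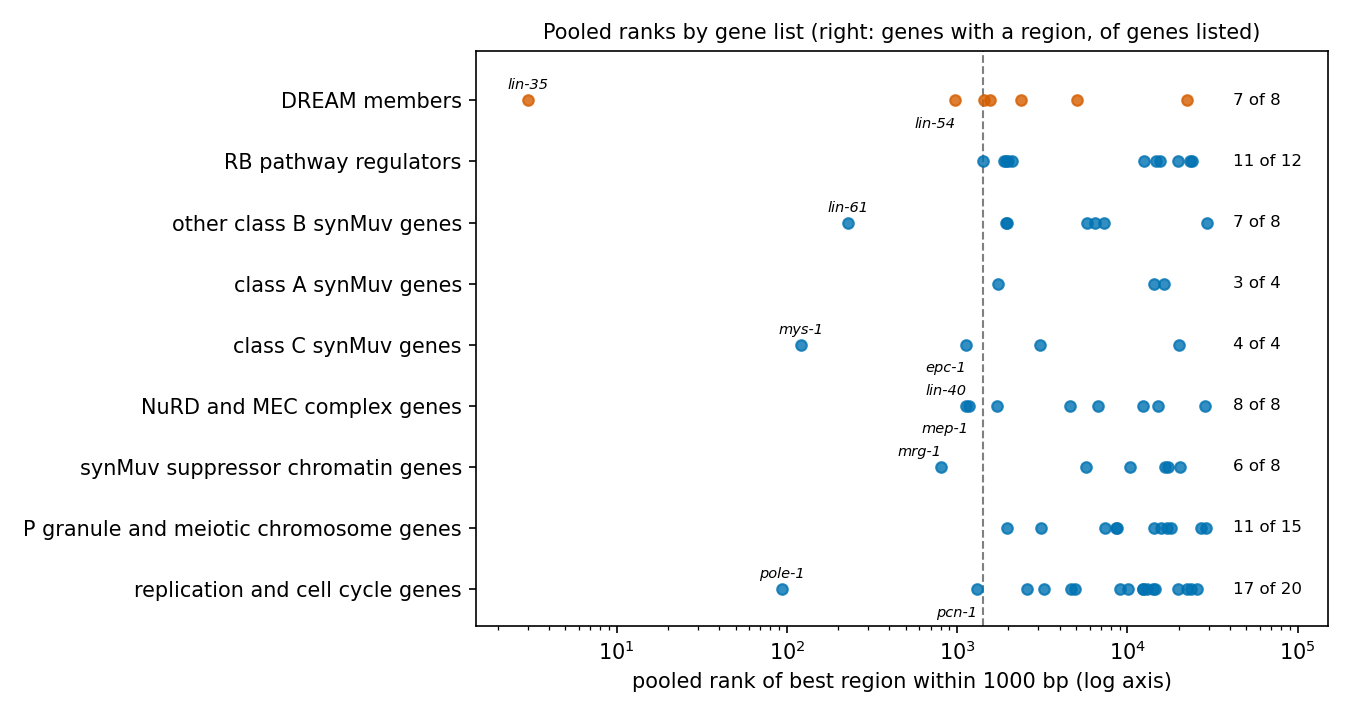
Pooled rank (log axis) of the best region within 1000 bp of each gene start, by gene list, with a dashed line at rank 1416, names beside the genes in the thresholded list, and at the right the number of genes with a pooled region of the number listed. The DREAM genes are in orange: lin-35 stands far to the left at rank 3, lin-54 at 974, and the others lie right of the line or have no region.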

How the data were processed

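Both samples were chromatin immunoprecipitation libraries of the same strain and stage. The authors deposited peak lists, called on each replicate and on both pooled, and a list thresholded by IDR, per the deposited text records. Control libraries named in the labels were not analysed here. The aligner, the peak caller and the IDR threshold were each not given in the sources used here. The authors' signal per region was used as deposited, for ranking within a list only, and summits were taken from the offset column. The 4 ce11 lists were used. The 4 ce10 lists were not used here. Gene starts came from Ensembl release 115 on WBcel235, the assembly of ce11, and all 8 genes matched by symbol. None of the regions ran past a chromosome end. Coordinates are 1-based. Regions of different lists were matched by an overlap of at least 1 bp. Words were sought on both strands. The genes, the lists and the rule for named genes (all 8 genes, genes sharing their regions, up to 6 thresholded genes per list and the 5 most like lin-35) were chosen with earlier results of these data known. Shares cover counts of genes or regions, with no interval for depth. The distance and offset functions were tested on simulated data. Calculations used Python 3.11.15, numpy 2.4.6 and pandas 2.3.3, with figures by matplotlib 3.10.9.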

Additional observations from a re-analysis of the deposited data

How the results depend on the processing

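The count of 2 DREAM genes with a thresholded region stayed at 2 with windows of 500 bp (4.13% of all protein-coding genes) and 2000 bp (7.87%), with any transcript start (6.11%) and when any base of the region counted (6.05%). It fell to 0 with a 250 bp window (2.53%), to 0 when each region counted only for its nearest protein-coding start (4.08%), and to 1, lin-35, in the upper 708 regions of the list (3.38%). Taking the 1416 highest regions of the other replicate's list gave 2 without replicate 1 and 3 without replicate 2. The other lists' count of 8 genes became 4 with 250 bp, 15 with 2000 bp and 3 in the upper 708 regions. It was 7 with 500 bp, 6 by nearest start, and 8 to 9 without a replicate. E2F-like or CHR-like words stood in 5 of 7 windows reaching 50 bases either side of the summit and in 6 of 7 reaching 100, where CHR-like words alone stood in 20.6% and 38.8% of thresholded windows. The 250 bp and nearest-start settings lose lin-35 and lin-54 because their thresholded summits lie 261 and 414 bp from the starts and nearer to a neighbour. The replicate 1 summit of lin-35, at 222 bp, lay inside 250 bp. No paired analysis was possible because there is 1 group of 2 samples. Unknown depth limits any reading of absent regions, such as that of lin-37.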
